A study of Arabidopsis thaliana with 27 samples.

Results

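The transcripts encoded by the chloroplast and mitochondrial genomes of Arabidopsis thaliana were followed in etiolated hypocotyls exposed to UV-B or kept dark. Members are the loci of the count table whose names begin ATCG (chloroplast) or ATMG (mitochondrion) and whose counts sum to at least 10 over the 27 libraries. That rule gave 124 of 32832 loci, 91 of 133 chloroplast loci and 33 of 152 mitochondrial loci. Of the other organelle loci, 32 chloroplast and 92 mitochondrial loci had 0 counts, and 10 and 27 had 1 to 9. At the limit, with 10 counts each, lay TRNC (ATCG00200), ORF107B (ATMG00200) and ORF262 (ATMG01090), and TRNW (ATCG00610) and NAD5B (ATMG00665) lay just under it with 9.

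The samples came from 3 genotypes: xpf-3, a mutant of UVH1, which encodes the repair endonuclease XPF, uvr8-6, which carries a mutation in UVR8, the gene for the photoreceptor of UV-B, and wild type Columbia-0 (WT). All seedlings grew for 2.5 days without light on 0.5× MS medium holding 100 µM GA4, a gibberellin. They stayed dark or were given UV-B at 3000 µmol m-2 (about 5 min) or 30000 µmol m-2 (about 45 min) and were then returned to darkness. Each of the 9 groups held 3 libraries, made from total RNA of excised hypocotyls with a stranded kit. Harvest took place 6 h after exposure according to the extraction protocol, whereas the series title gives 2 days. Each mutant is represented by 1 allele. The labels do not say that replicates came from separate cultures, so p-values measure the spread between these libraries, which may be technical.

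Plant organelles kept small genomes of their own. The chloroplast genome encodes core subunits of the photosystems, of ATP synthase and of Rubisco, part of the ribosome, and the core of a plastid-encoded RNA polymerase, while a single-subunit polymerase imported from the nucleus transcribes rpoB and other housekeeping genes. The mitochondrial genome encodes subunits of the respiratory chain and of ATP synthase, some ribosomal proteins and rRNAs. In etiolated tissue plastids are present as etioplasts without photosynthesis, and in both plant organelles a poly(A) tail marks an RNA for decay instead of stabilising it. Whether the libraries were made by poly(A) selection or rRNA removal is not given in the sources used here.

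A library held between 4508097 and 11045334 counts in xpf-3, from 12488317 to 15342281 in uvr8-6 and from 6163441 to 11984665 in WT. The deposited description places the uvr8-6 libraries in a later sequencing run than the others, so run and uvr8-6 genotype cannot be told apart. UVR8 (AT5G63860) averaged 3.72 ± 0.986 CPM (counts scaled to a library total of 1000000) in uvr8-6 dark and 67.7 ± 2.53 CPM in WT dark (SD, n = 3 each). UVH1 (AT5G41150) averaged 39.1 ± 5.72 CPM in xpf-3 dark and 18.5 ± 0.732 CPM in WT dark (SD, n = 3 each), a count over the whole locus that does not check the allele. One library, xpf-3 UV-B 3000 replicate 1, stood apart in organelle rRNA, and the uvr8-6 libraries numbered 2 were the highest of their groups in organelle sums in the dark and after the high dose. The 6 genes chosen for growth in the dark summed to 4065 to 5874 CPM in WT dark. The 6 root markers reached 359.5 to 474.4 CPM there, so the excised tissue was not free of root transcripts.

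Organelle transcripts were a very small share of every library, and protein-coding ones were higher after 30000 µmol m-2 of UV-B in all 3 genotypes. Shares are given in CPM of the library's raw total, with no test, since a sum over chosen loci supports none. In a bulk sample, fewer cells of a type and less RNA per cell cannot be told apart. In xpf-3, the protein-coding chloroplast members summed to 34.9, 25.0 and 27.5 CPM in the dark, 39.0, 37.7 and 71.1 after the low dose and 119, 187 and 163 after the high dose. In uvr8-6 the sums were 170.5, 206 and 77.9 CPM in the dark, 109, 94.8 and 152 after the low dose and 197, 412 and 281 after the high dose. In WT they were 27.6, 29.9 and 25.6 CPM in the dark, 35.8, 50.4 and 39.1 after the low dose and 256, 226 and 148 after the high dose. The high dose lay above the dark without overlap in xpf-3 and WT. In uvr8-6 the lowest high-dose library fell below the highest dark one, and the dark libraries were already far above those of WT. The ratio of the mean share at the high dose to that in the dark was 5.38 in xpf-3, 1.96 in uvr8-6 and 7.57 in WT. At the low dose it was 1.69, 0.784 and 1.51 in the same order of genotypes.

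The protein-coding mitochondrial members summed to 42.2, 23.0 and 30.6 CPM in xpf-3 dark, 31.9, 44.6 and 39.5 at the low dose and 134, 194 and 137 at the high dose. In uvr8-6 they stood at 78.3, 153 and 39.9 CPM in the dark, 48.3, 65.1 and 65.1 at the low dose and 93.5, 260.4 and 145 at the high dose. In WT they stood at 15.2, 16.0 and 19.4 CPM in the dark, 21.0, 22.8 and 24.5 at the low dose and 232, 217 and 152 at the high dose. High-dose and dark libraries did not overlap in xpf-3 and WT and overlapped in uvr8-6, and uvr8-6 replicate 2 after the high dose was the highest of all 27 libraries for both genomes. The high-dose means were 4.85 times the dark mean in xpf-3, 1.84 times in uvr8-6 and 11.9 times in WT. The open reading frame ORF107A (ATMG00030) supplied most of these counts in every dark group, so these sums and ratios largely follow it. In uvr8-6 its log2 fold change was 0.34 ± 0.40, against a median of 1.94 over the 18 tested mitochondrial members. Transcripts of the nuclear cytosolic rRNA loci moved in the same libraries and by more. They summed to 3235, 4209 and 3653 CPM after the high dose and 222, 168 and 210.0 CPM in the dark in xpf-3, 968, 2890.4 and 1602 and 636, 891 and 253 CPM in uvr8-6, and 4880.0, 4790.0 and 3745 and 76.9, 80.8 and 73.5 CPM in WT. The ratios of means were 18.5, 3.07 and 58.0. What raised the cytosolic rRNA counts was not tested, nor was their part in the organelle result.

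**Figure D1:**
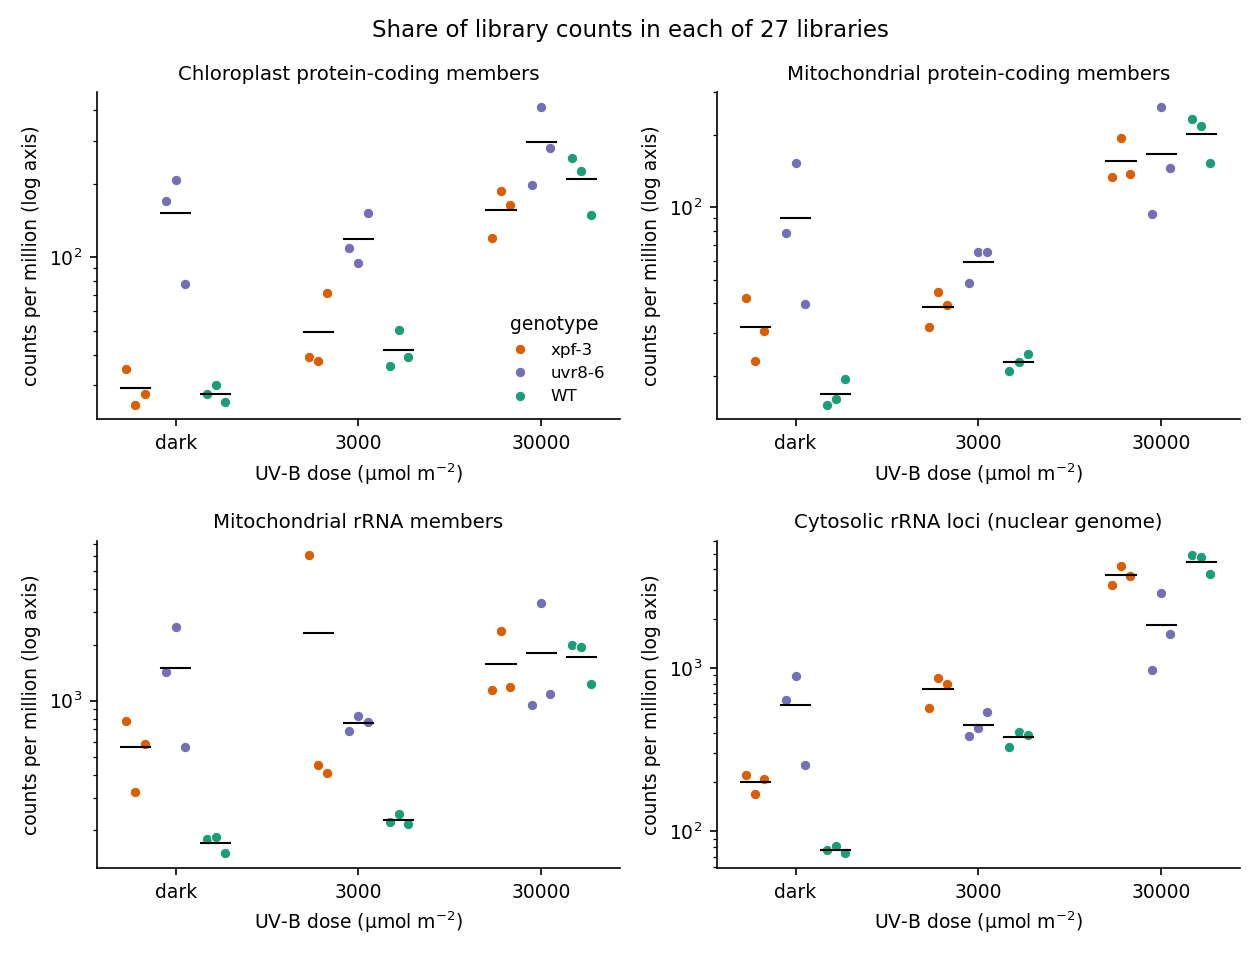
CPM of the library total (log axis) against UV-B dose for 4 sums of loci: protein-coding chloroplast members, protein-coding mitochondrial members, mitochondrial rRNA members and nuclear cytosolic rRNA loci. Points are libraries and black bars are means of 3 libraries per group in xpf-3, uvr8-6 and WT; in WT the dark points lie lowest and the 30000 µmol m-2 points highest in all 4 sums.

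Ribosomal RNAs made up most of the mitochondrial counts. RRN26 (ATMG00020), the large-subunit rRNA, stood at 1295, 1296 and 761 CPM in WT after the high dose and 126, 120.5 and 98.0 CPM in WT dark. RRN18 (ATMG01390), the small-subunit rRNA, stood at 701, 644 and 463 CPM and 54.2, 62.9 and 52.8 CPM in the same libraries. Neither gene overlapped between the doses in WT, and their log2 fold changes from the fit were 3.20 ± 0.88 (SE, edgeR adjusted p = 0.00346) for RRN26 and 3.33 ± 0.51 (adjusted p = 8.65e-06) for RRN18. In xpf-3, RRN18 was at 428, 841 and 412 CPM after the high dose and 248, 105 and 193 CPM in the dark, a log2 fold change of 1.51 ± 0.47 (adjusted p = 0.00712). RRN26 did not pass in xpf-3 at the high dose (1.30 ± 0.82, adjusted p = 0.16). In uvr8-6, RRN18 was at 385, 1205 and 393 CPM after the high dose and 485, 783 and 203 CPM in the dark. Those groups overlapped, with replicate 2 the highest in both, and neither rRNA passed in uvr8-6 (0.45 ± 0.46, adjusted p = 0.417 for RRN18).

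The library xpf-3 UV-B 3000 replicate 1 held rRNA of both organelles far beyond its companions. RRN26 stood at 5770.1, 303 and 275 CPM in the 3 libraries of that group, and RRN18 at 309, 149 and 133 CPM. Its ratio of RRN26 to RRN18 counts was 18.7, against 1.45 to 2.33 in the other 26 libraries. The chloroplast rRNAs did the same: 1548 of the 1572 counts of RRN16S.1 (ATCG00920) and 334 of the 350 counts of RRN16S.2 (ATCG01210) came from this library. These are the copies of the small-subunit rRNA gene in the chloroplast's inverted repeat, so the split of reads between them is uncertain. Protein-coding organelle transcripts were not raised in it, as their sums above show. RRN26 passed in xpf-3 at the low dose (2.22 ± 0.84, adjusted p = 0.0255), but without this library its value was -0.64 (adjusted p = 0.335).

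After the high dose in WT, chloroplast transcripts of the photosynthetic complexes, the ribosome and other plastid functions rose, with the highest role medians among tested members in the cytochrome b6f complex (log2 fold change 4.10) and photosystem I (3.94). The 4 chloroplast rRNA members were not tested. Of the 56 chloroplast members that had enough counts to test, 50 were higher and 0 lower, against 33.0% of all 19794 tested genes higher and 31.5% lower (64.5% in either direction). Their median log2 fold change was 3.13, against 0.03 over all tested genes. A member could reach the test through its high group alone, so counts over tested members describe them and do not stand for the 35 chloroplast members left untested, whose counts summed to between 10 and 1572. The 3 WT libraries of the high dose lay above the 3 dark ones in CPM in 52 of the 56, as they did in 36.3% of all tested genes, and below them in 0, against 30.0%.

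Core genes of both photosystems rose. PSAB (ATCG00340), a core protein of photosystem I, was at 19.6, 17.4 and 9.87 CPM after the high dose and 0.418, 0.707 and 0.668 CPM in the dark, a log2 fold change of 4.62 ± 0.55 (adjusted p = 1.79e-07). Its partner PSAA (ATCG00350) was at 15.1, 13.6 and 8.70 CPM and 0.836, 1.18 and 0.918 CPM in the same groups (3.59 ± 0.49). Every high-dose library lay far above every dark one for both. PSBC (ATCG00280), the CP43 antenna protein of photosystem II, was at 15.2, 15.1 and 6.58 CPM after the high dose and 0.669, 0.471 and 0.751 CPM in the dark (4.14 ± 0.46). PSBA (ATCG00020), the D1 protein that is damaged and replaced in the light, was at 10.1, 7.63 and 4.35 CPM and 0.585, 0.824 and 0.584 CPM (3.38 ± 0.57). Neither pair of groups overlapped, and replicate 3 was the lowest of the high-dose libraries for all 4 genes. All 4 tested photosystem I members of 5, and 7 of the 8 tested photosystem II members of 15, passed. The exception, PSBI (ATCG00080), had 0 counts after the high dose and 2 in the dark. PSAC (ATCG01060), an iron-sulfur subunit of photosystem I, had 3 counts in the dark, giving a ratio of 22.9 (95% counting interval 7.36 to 115). PSBE (ATCG00580), a cytochrome b559 subunit, had 1 dark count and a ratio of 39.4 (6.50 to 1614). Such intervals cover counting error only.

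Electron transport, carbon fixation and ATP synthesis followed. RBCL (ATCG00490), the large subunit of Rubisco and the only chloroplast-encoded Rubisco gene, was at 19.7, 22.1 and 10.3 CPM after the high dose and 1.09, 1.65 and 0.918 CPM in the dark (3.77 ± 0.52, adjusted p = 1.64e-06). Among cytochrome b6f genes, all 3 tested members of 6 passed. PETA (ATCG00540), cytochrome f, had a log2 fold change of 3.36 ± 0.60, and PETD (ATCG00730), subunit IV, had 3 dark counts and a ratio of 34.5 (11.4 to 171). All 6 ATP synthase members passed. ATPB (ATCG00480), the catalytic beta subunit, was at 13.4, 11.5 and 5.64 CPM after the high dose and 2.51, 3.18 and 2.84 CPM in the dark (1.75 ± 0.34), again with no overlap. ATPA (ATCG00120), the alpha subunit, had 2.50 ± 0.50, and ATPH (ATCG00140), of the membrane ring, 2.64 ± 0.67. Of the NDH complex, which moves electrons around photosystem I, 5 of 6 tested members of 10 passed, among them NDHD (ATCG01050, 3.33 ± 0.73). NDHG (ATCG01080) and NDHI (ATCG01090) each had 1 dark count, with ratios of 26.3 (4.15 to 1095) and 23.4 (3.63 to 979).

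Genes for translation and other plastid functions also rose. Of the 15 tested ribosomal protein members of 18, 12 passed, including RPS14 (ATCG00330, 3.93 ± 0.67). All 7 tested members of the remaining protein group passed. In it were ACCD (ATCG00500, 4.79 ± 0.78), the plastid subunit of acetyl-CoA carboxylase, YCF4 (ATCG00520, 3.95 ± 0.75), a photosystem I assembly factor, CLPP1 (ATCG00670, 2.68 ± 0.41), a protease subunit, and YCF1.2 (ATCG01130, 2.71 ± 0.57), a component of the protein import machinery. Of 14 tRNA members 2 could be tested, and both passed. The 6 tested members that did not pass were PSBI, RPOB (0.51 ± 0.26), NDHK (1.48 ± 0.72), RPL36 (1.78 ± 0.89), RPS19 (1.03 ± 0.95) and RPL32 (0.59 ± 0.81).

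**Figure D2:**
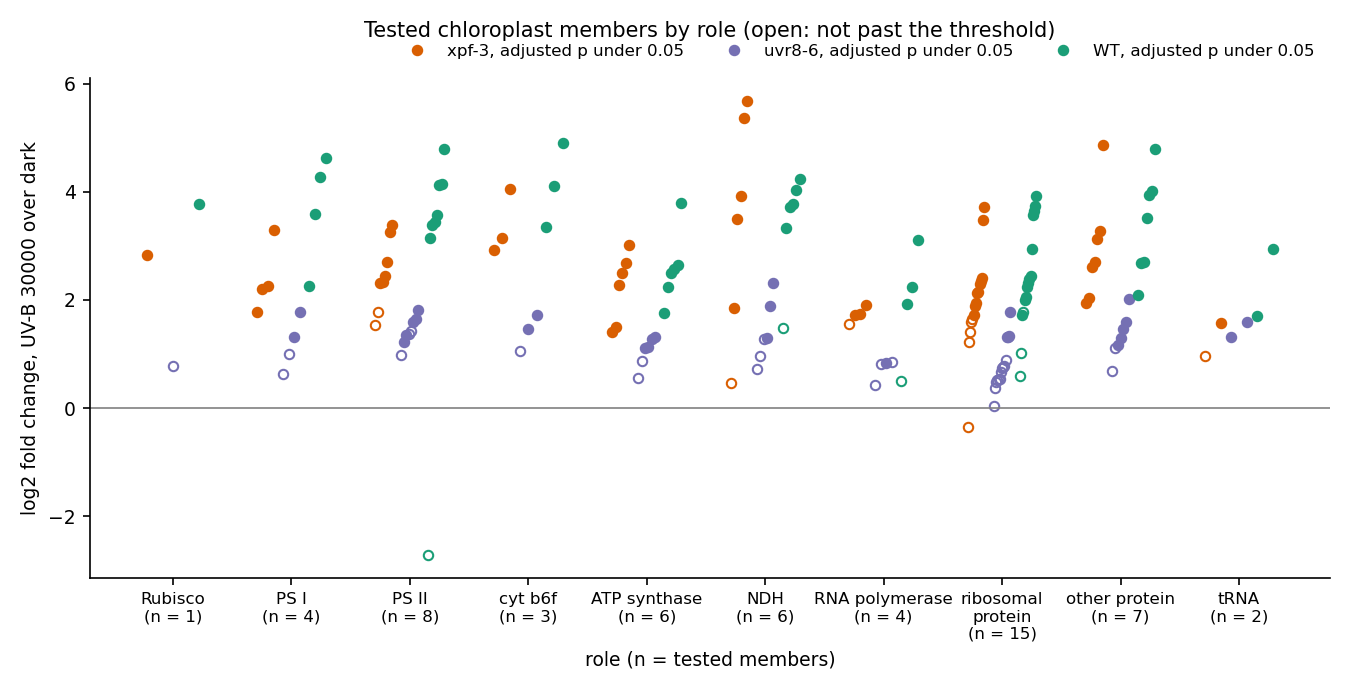
Log2 fold change of UV-B 30000 over dark for the 56 tested chloroplast members, grouped by role, in xpf-3, uvr8-6 and WT. Filled points passed an adjusted p of 0.05 and open points did not; the median over members was 2.28 in xpf-3, 1.14 in uvr8-6 and 3.13 in WT.

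RPOB (ATCG00190), the beta subunit of the plastid-encoded RNA polymerase, was among the few tested members that did not pass in WT. It was at 9.41, 6.49 and 6.11 CPM after the high dose and 5.27, 5.42 and 4.01 CPM in the dark. The lowest high-dose library lay above the highest dark one, but the log2 fold change of 0.51 ± 0.26 did not pass (adjusted p = 0.0871). The other polymerase subunits did: RPOA (3.12 ± 0.93), RPOC1 (1.92 ± 0.51) and RPOC2 (2.24 ± 0.64). RPOB had 163 counts after the high dose and 157 in the dark, so it was not among the genes that are scarce in WT dark. In xpf-3, RPOB was at 10.9, 10.5 and 11.8 CPM after the high dose and 3.62, 2.54 and 3.13 CPM in the dark and rose (1.72 ± 0.26, adjusted p = 3.28e-06). In uvr8-6 it was at 17.6, 17.3 and 14.9 CPM and 10.9, 11.3 and 5.91 CPM and also rose (0.83 ± 0.22, adjusted p = 0.00299). High-dose and dark libraries did not overlap in either mutant.

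The make-up of the chloroplast protein-coding counts differed accordingly between doses. RPOB took 17.6 ± 1.78% of them in WT dark, 11.7 ± 4.87% after the low dose and 3.56 ± 0.631% after the high dose (SD, n = 3 each). The 4 polymerase genes together took 24.5 ± 1.16%, 18.4 ± 6.65% and 8.09 ± 0.720% in the same order. Photosystem I genes took 7.07 ± 1.45%, 7.99 ± 2.59% and 15.1 ± 0.198%, and photosystem II genes 9.37 ± 1.04%, 10.4 ± 1.74% and 17.6 ± 1.73%. In WT, then, the polymerase share was lowest and both photosystem shares were highest in the high-dose libraries, with no overlap with the dark. In xpf-3 the polymerase share was 17.4 ± 3.30% in the dark, 16.2 ± 0.902% after the low dose and 12.5 ± 3.19% after the high dose, and the dark and high-dose ranges overlapped. In uvr8-6 it was 15.8 ± 1.59%, 14.7 ± 1.66% and 14.2 ± 0.804%, and photosystem I stood at 7.91 ± 0.510%, 7.15 ± 1.09% and 8.0 ± 1.52%. Neither moved by more than about the spread of the uvr8-6 libraries. Photosystem II in uvr8-6 took 7.27 ± 0.922%, 9.02 ± 2.43% and 9.67 ± 0.859%, with the dark below the high dose in every library. These shares are of counts, not of molecules, since no lengths were used.

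**Figure D3:**
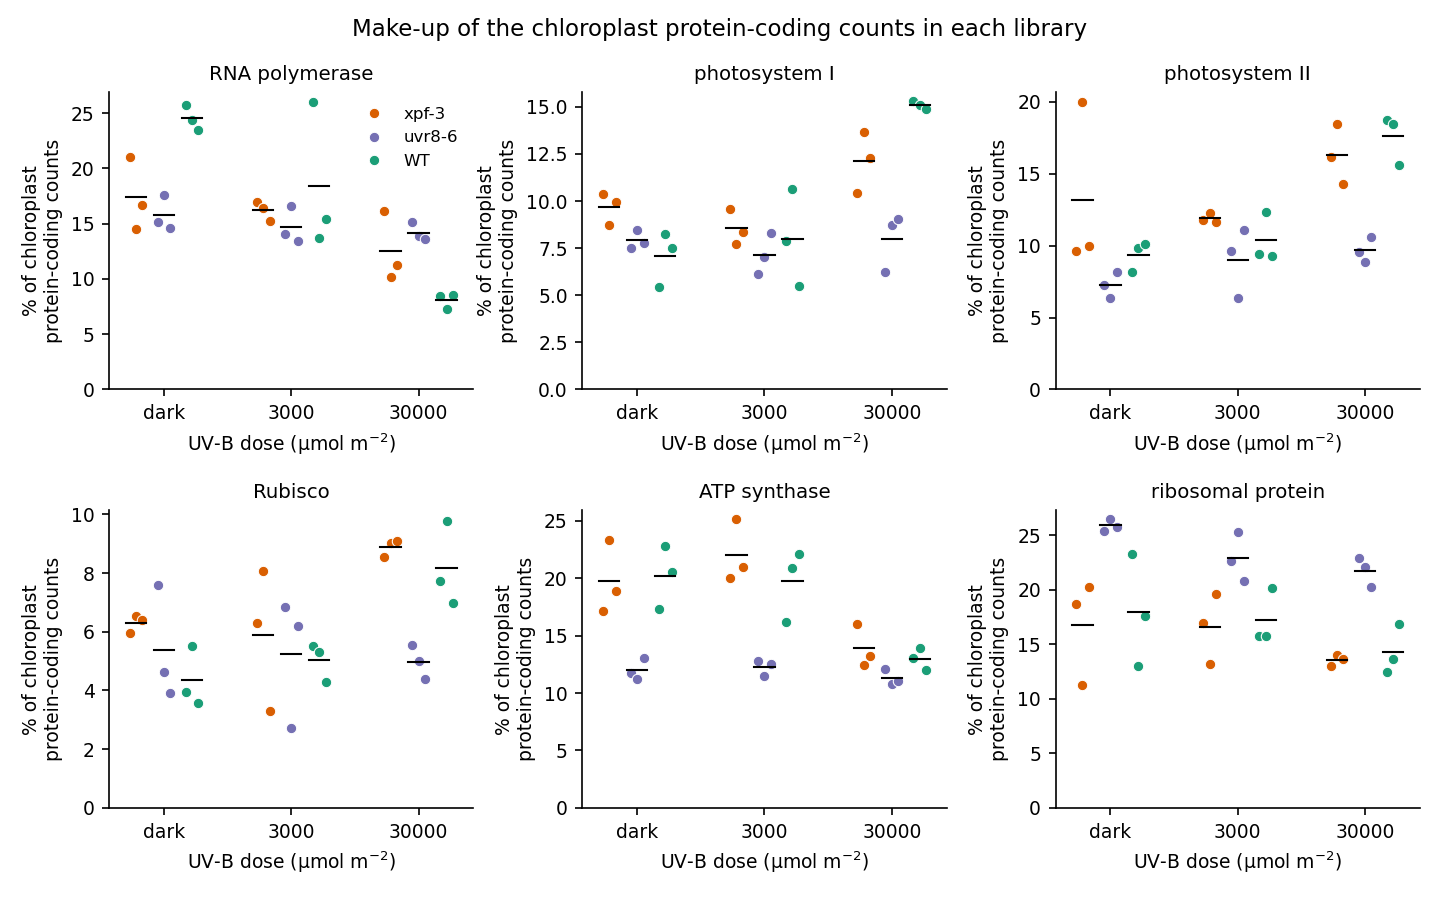
Percent of the chloroplast protein-coding counts taken by 6 groups of genes (RNA polymerase, photosystem I, photosystem II, Rubisco, ATP synthase, ribosomal protein) against UV-B dose. Points are libraries and bars are means of 3 libraries for xpf-3, uvr8-6 and WT; the RNA polymerase share averaged 24.5% in WT dark and 8.09% in WT at 30000 µmol m-2.

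After the high dose in xpf-3, 46 of the 56 tested chloroplast members were higher and 0 lower, against 37.8% of all tested genes higher and 35.5% lower (73.3% in all), with a median log2 fold change of 2.28. A fit of the compared groups alone, whose low-count filter kept 26 chloroplast members, called all 26. That filter could keep a member through its high-dose group alone, so the count describes those 26 only. All 4 tested photosystem I members, 6 of 8 photosystem II, 3 of 3 cytochrome b6f, 6 of 6 ATP synthase, 5 of 6 NDH and 10 of 15 ribosomal protein members passed. PSAB was at 6.21, 12.5 and 10.5 CPM after the high dose and 1.27, 0.454 and 1.08 CPM in the dark (3.29 ± 0.52), and RBCL at 10.2, 16.9 and 14.8 CPM and 2.08, 1.63 and 1.76 CPM (2.83 ± 0.49). Groups did not overlap for either, and replicate 1 was the lowest high-dose library in both. Members that were almost absent in xpf-3 dark included NDHG and NDHI with 0 counts, which were at least 5.57-fold and at least 4.55-fold higher against a floor of 3 counts over the group. YCF4 had 1 dark count and a ratio of 41.0 (6.76 to 1678). PETA had 4.05 ± 0.70 and NDHD 3.92 ± 0.82, while PSBE did not pass (1.53 ± 0.78, adjusted p = 0.0799).

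The difference between the xpf-3 and WT responses to the high dose passed for 1 chloroplast member, RPOB, and for 0 mitochondrial members, against 9.34% of all genes (5.21% larger or more positive in xpf-3 and 4.13% the other way). The RPOB response was larger in xpf-3 by 1.21 ± 0.37 on the log2 scale (adjusted p = 0.0403). Leaving out single libraries moved that difference between 1.08 and 1.51, and in 9 of the 12 such fits it did not pass (adjusted p between 0.0253 and 0.117 over the 12). It passed only without WT dark replicate 3, WT UV-B 30000 replicate 1 or xpf-3 dark replicate 1. Of the mitochondrial members, 3 had an unadjusted p under 0.05, and DESeq2 called 1.

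After the high dose in uvr8-6, 28 of the 56 tested chloroplast members were higher and 0 lower, against 32.2% of all genes higher and 25.4% lower (57.7% in all), with a median log2 fold change of 1.14. By role, 2 of 4 photosystem I, 5 of 8 photosystem II, 2 of 3 cytochrome b6f, 4 of 6 ATP synthase, 3 of 6 NDH, 1 of 4 polymerase and 4 of 15 ribosomal protein members passed. PSAB was at 5.85, 19.3 and 13.7 CPM after the high dose and 5.48, 7.79 and 2.51 CPM in the dark and rose (1.31 ± 0.40, adjusted p = 0.00824), although replicate 1 of the high dose lay below dark replicate 2. RBCL was at 10.9, 20.7 and 12.3 CPM and 13.0, 9.56 and 3.06 CPM in the same groups and did not pass (0.78 ± 0.40, adjusted p = 0.101), with overlapping libraries. NDHD rose with no overlap, at 4.67, 8.41 and 7.56 CPM after the high dose and 1.63, 1.93 and 0.611 CPM in the dark (2.31 ± 0.48), as did NDHG (1.88 ± 0.54), ACCD (2.02 ± 0.52), RPS14 (1.78 ± 0.50) and PSBA (1.65 ± 0.46). The count of 28 was 12 without uvr8-6 dark replicate 3, 13 without uvr8-6 UV-B 30000 replicate 2, and 10 without all uvr8-6 libraries numbered 2, and a fit of the compared groups alone called 18 of 56. With the replicate number as a block, ATPA, which had 0.87 ± 0.39 (adjusted p = 0.0642), passed (0.86, adjusted p = 0.0337).

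The uvr8-6 response to the high dose was smaller than that of WT in 11 chloroplast members and larger in 0, against 3.73% of all genes smaller or more negative and 4.48% the other way (8.21% in all). Among them were PSAB (-3.31 ± 0.70, adjusted p = 0.00586), PSAA (-2.97 ± 0.63), RBCL (-2.99 ± 0.66), PSBC (-2.55 ± 0.60), PSBB (-2.77 ± 0.83), PSBD (-2.35 ± 0.71), PETB (-3.04 ± 0.83), PETD (-3.19 ± 0.99), ATPF (-2.67 ± 0.70), and RPL16 (ATCG00790, -1.72 ± 0.54), a ribosomal protein gene. PSBB and PSBD encode the CP47 and D2 proteins of photosystem II, PETB cytochrome b6, and ATPF the stalk of ATP synthase. The differences for PSBC, PSAB and RBCL passed under every alternative that was run, 20 for each, whereas that for PETD was lost in 12 of 20. The count of 11 was 5 without WT dark replicate 2, WT dark replicate 3 or WT UV-B 30000 replicate 2, and 6 without WT UV-B 30000 replicate 1 or uvr8-6 dark replicate 1. It was 4 without uvr8-6 dark replicate 2 or uvr8-6 UV-B 30000 replicate 1, 21 without uvr8-6 dark replicate 3, 19 without uvr8-6 UV-B 30000 replicate 2 and 7 without all uvr8-6 libraries numbered 2. A fit of the compared groups alone called 4 of the 58 members it tested. These differences use the same dark libraries as the comparison of uvr8-6 with WT in the dark.

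**Figure D4:**
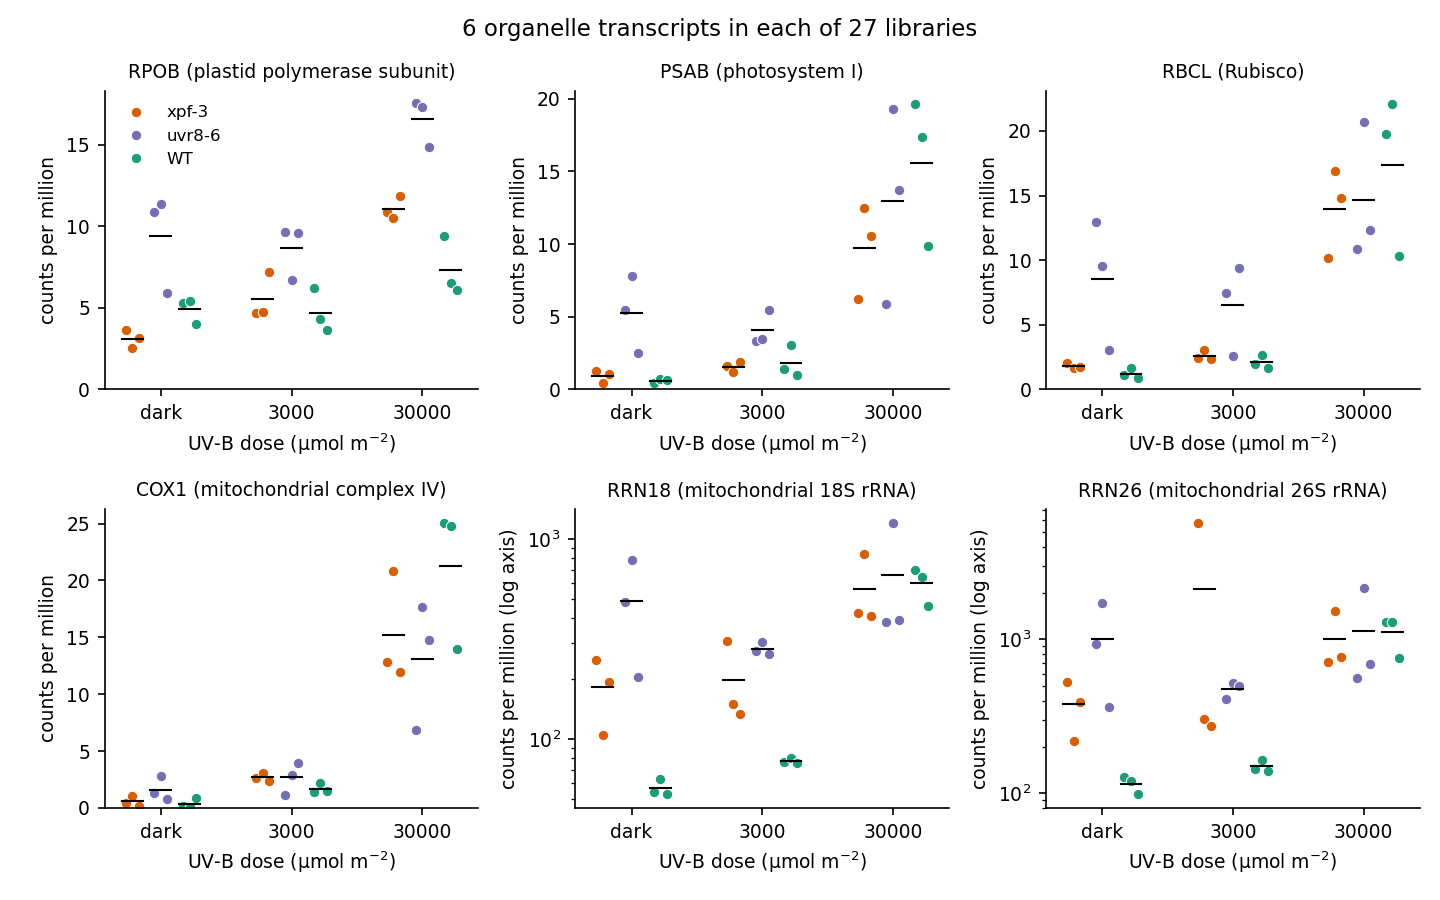
CPM of each library for RPOB, PSAB, RBCL and COX1 (linear axes) and for the mitochondrial rRNAs RRN18 and RRN26 (log axes) against UV-B dose. Points are libraries and bars are means of 3 libraries for xpf-3, uvr8-6 and WT; RRN26 in xpf-3 at 3000 µmol m-2 has 1 library at 5770 CPM and the other 2 at 303 and 275 CPM.

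Mitochondrial transcripts rose after the high dose in WT in every tested member. Of the 18 tested members of 33, 18 were higher, against 33.0% of all tested genes (64.5% in either direction), with a median log2 fold change of 4.36. The groups did not overlap in any of the 18, where 36.3% of all genes had every high-dose library above every dark one. Here too a member could reach the test through its high group alone, so these counts do not stand for the 15 members left untested. COX1 (ATMG01360), the catalytic subunit of cytochrome c oxidase (complex IV), was at 25.0, 24.8 and 14.0 CPM after the high dose and 0.167, 0.118 and 0.834 CPM in the dark (5.62 ± 0.60, adjusted p = 3.42e-08). COX2 (ATMG00160), the subunit that takes electrons from cytochrome c, was at 13.6, 10.2 and 7.05 CPM and 0.502, 0.236 and 0.250 CPM (4.80 ± 0.66). Both were below 1 CPM in every dark library. The ribosomal protein gene RPS3 (ATMG00090) was at 18.8, 16.9 and 10.7 CPM after the high dose and 0.0836, 0.824 and 0.334 CPM in the dark (5.23 ± 0.62), and RPL16 (ATMG00080) had 4.38 ± 0.58. ORF25 (ATMG00640), the b subunit of ATP synthase, was at 11.7, 9.57 and 6.70 CPM and 0.251, 0 and 0.834 CPM (4.44 ± 0.53), and ATP6-2 (ATMG01170), the a subunit, had 2 dark counts and a ratio of 58.4 (15.6 to 490).

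Complex I, the NADH dehydrogenase, had 5 tested members of 7, and all 5 rose. NAD9 (ATMG00070) was at 8.61, 5.35 and 6.23 CPM after the high dose and 0.418, 0.707 and 0.167 CPM in the dark (3.93 ± 0.53). NAD5C (ATMG00060), one part of the split NAD5 gene, was at 8.88, 8.76 and 4.11 CPM and 0.251, 0.589 and 0.334 CPM (4.14 ± 0.63). Groups stood well apart for both. NAD4L (ATMG00650) had 1 dark count and a ratio of 93.4 (16.2 to 3747). NAD5A (ATMG00513), another part of NAD5, had 0 and was 18.5-fold higher against a floor of 3 counts over the group. The largest single protein-coding source of mitochondrial counts was ORF107A (ATMG00030), an open reading frame of unassigned function, at 106, 109 and 83.9 CPM after the high dose and 11.7, 12.4 and 15.0 CPM in the dark (2.85 ± 0.45). ORF106F (ATMG01130) had 1 dark count and a ratio of 68.6 (11.7 to 2767).

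In the mutants most tested mitochondrial members also rose after the high dose. In xpf-3, 17 of the 18 tested members were higher, against 37.8% of all genes (73.3% in either direction), median 3.06, and the exception was RRN26. COX1 was at 12.9, 20.8 and 12.0 CPM after the high dose and 0.453, 1.09 and 0.196 CPM in the dark (4.58 ± 0.57), COX2 had 3.49 ± 0.61, ORF25 3.95 ± 0.53, and NAD4L 4.19 ± 0.72. In uvr8-6, 14 of the 18 were higher, against 32.2% of all genes (57.7% in either direction), median 1.94. A fit of the compared uvr8-6 groups alone called 8 of the 14 it tested. COX1 was at 6.82, 17.7 and 14.7 CPM after the high dose and 1.30, 2.78 and 0.747 CPM in the dark (3.04 ± 0.47), COX2 had 2.76 ± 0.51, NAD4L 3.29 ± 0.54, NAD5A 3.55 ± 0.88 and ATP6-2 3.07 ± 0.56. COX1 did not overlap between doses in either mutant. The 4 that did not pass in uvr8-6 were RRN26 (0.20 ± 0.80), RRN18 (0.45 ± 0.46), ORF107A (0.34 ± 0.40) and ORF106F (0.87 ± 0.58). ORF107A was at 48.7, 157 and 54.4 CPM after the high dose and 58.5, 119 and 29.7 CPM in the dark, overlapping groups in which replicate 2 was the highest each time.

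**Figure D5:**
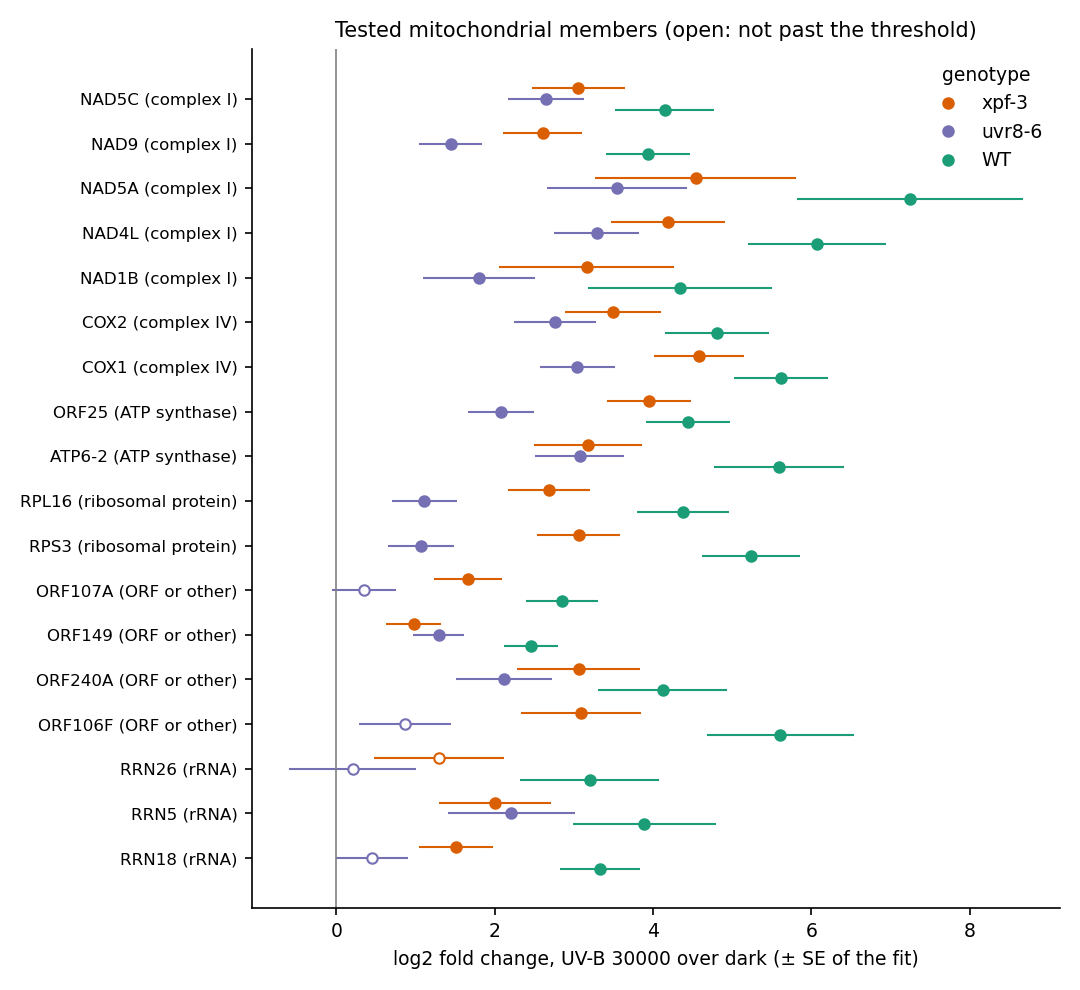
Log2 fold change of UV-B 30000 over dark, with its standard error, for the 18 tested mitochondrial members in xpf-3, uvr8-6 and WT. Filled points passed an adjusted p of 0.05; COX1 passed in all 3 genotypes, at 4.58, 3.04 and 5.62.

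The uvr8-6 response was smaller than that of WT in 7 of the 18 mitochondrial members and larger in 0, beside the same 8.21% of all genes. The 7 were RPS3 (ATMG00090, -4.17 ± 0.78, adjusted p = 0.00248), ORF106F (-4.74 ± 1.21, a fitted value that rests on 1 count in WT dark), RPL16 (ATMG00080, -3.26 ± 0.74), RRN18 (-2.88 ± 0.67), ORF107A (-2.50 ± 0.60), NAD9 (-2.49 ± 0.68) and ORF25 (-2.36 ± 0.71). For RPS3, the uvr8-6 libraries were at 7.63, 17.0 and 13.6 CPM after the high dose and 5.67, 10.3 and 2.45 CPM in the dark, against 18.8, 16.9 and 10.7 CPM and 0.0836, 0.824 and 0.334 CPM in WT. The high-dose levels of the 2 genotypes overlapped, while the dark levels did not. The differences for RPS3 and RRN18 passed under all 20 alternatives run for each. The count of 7 was 4 without uvr8-6 dark replicate 2, and 2 of 18 in a fit of the compared groups alone.

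Within the mitochondrial protein-coding counts, complex IV genes took 4.07 ± 1.72% in WT dark, 12.9 ± 3.26% after the low dose and 15.6 ± 1.51% after the high dose (SD, n = 3 each). In xpf-3 they took 3.81 ± 2.01%, 10.2 ± 2.06% and 14.5 ± 0.997% in the same order, and in uvr8-6 3.34 ± 0.502%, 8.10 ± 3.12% and 13.4 ± 2.81%. ORF107A took 77.2 ± 0.333%, 61.6 ± 8.96% and 50.4 ± 4.72% in WT. So in all 3 genotypes complex IV held a larger and ORF107A a smaller part of these counts with each dose, by group means, and the dark and high-dose libraries of complex IV did not overlap. ORF107A averaged 77.4%, 63.5% and 54.4% in xpf-3, and 75.6%, 65.6% and 49.9% in uvr8-6.

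At the low dose few organelle transcripts passed the threshold. In WT, 0 of 56 chloroplast and 1 of 18 mitochondrial members passed, against 25.6% of all genes (12.9% higher and 12.7% lower). The median log2 fold change was 0.52 in the chloroplast, with 45 of 56 members above 0. In the mitochondrion it was 0.91, with 15 of 18 above 0. Of the chloroplast members, 6 had an unadjusted p under 0.05, and DESeq2 called 2. The mitochondrial one was NAD4L, at 0.141, 1.05 and 0.279 CPM after the low dose and 0, 0 and 0.0834 CPM in the dark, where it had 1 count (ratio 17.2, 2.65 to 724). The groups did not overlap, but without WT dark replicate 1, WT dark replicate 2 or WT UV-B 3000 replicate 2 no mitochondrial member passed, and without WT dark replicate 3 there were 2. A fit of the compared groups alone called 0 of the 5 it tested, and DESeq2 and the fit with the replicate block 2 each. COX1 was at 1.41, 2.20 and 1.49 CPM after the low dose and 0.167, 0.118 and 0.834 CPM in the dark, with no overlap. It did not pass (1.94 ± 0.75, adjusted p = 0.0602) but did with the replicate number as a block (1.85, adjusted p = 0.0394). There was 1 chloroplast call without WT dark replicate 1, WT UV-B 3000 replicate 1 or WT UV-B 3000 replicate 3.

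In xpf-3 most of all tested genes passed at the low dose, and few organelle members did. Of all genes 67.3% passed (33.4% higher and 33.9% lower), against 2 of 56 chloroplast and 2 of 18 mitochondrial members, 0 of them lower. The chloroplast members were MATK (ATCG00040), an intron maturase, and ATPH (1.89 ± 0.81, adjusted p = 0.0435). MATK was at 0.641, 0.487 and 2.83 CPM after the low dose and 0.272, 0.545 and 0.196 CPM in the dark (1.74 ± 0.70), and its groups overlapped. Beside RRN26, COX1 passed, at 2.67, 3.04 and 2.34 CPM after the low dose and 0.453, 1.09 and 0.196 CPM in the dark (1.92 ± 0.65, adjusted p = 0.0128), with no overlap. RPOB missed the threshold (0.60 ± 0.27, adjusted p = 0.0509). By unadjusted p under 0.05 there were 9 chloroplast and 3 mitochondrial members. Many members had few counts in these groups, so a member that did not pass is not thereby shown to be unchanged. The median log2 fold change was 0.59 over the chloroplast members, with 40 of 56 above 0, and 0.58 over the mitochondrial ones, with 13 of 18 above 0. The chloroplast count was 9 without xpf-3 UV-B 3000 replicate 1, 8 without xpf-3 UV-B 3000 replicate 2, and 0 without xpf-3 dark replicate 3 or xpf-3 UV-B 3000 replicate 3. The mitochondrial count was 1 without xpf-3 dark replicate 2, xpf-3 dark replicate 3 or xpf-3 UV-B 3000 replicate 1. The chloroplast count was 9 without the low-count filter, 5 by DESeq2, 4 with the replicate block, and 4 of 13 tested in a fit of the compared groups alone.

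In uvr8-6 the low dose gave 0 calls in either genome, against 5.51% of all genes (2.63% higher and 2.88% lower). By unadjusted p under 0.05 there were 6 chloroplast members and 1 mitochondrial member, and DESeq2 called 0 of each. The median log2 fold changes were -0.42 in the chloroplast and -0.27 in the mitochondrion. RBCL was at 7.49, 2.57 and 9.42 CPM after the low dose and 13.0, 9.56 and 3.06 CPM in the dark, and COX1 at 1.16, 2.94 and 3.98 CPM and 1.30, 2.78 and 0.747 CPM, overlapping in both cases.

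Set directly against the low dose, the high dose was higher in 48 chloroplast and 18 mitochondrial members in WT, against 46.4% of all genes in either direction (22.9% higher and 23.5% lower). In xpf-3 the counts were 30 and 14, against 19.5% (10.5% higher), and in uvr8-6 48 and 16, against 40.8% (22.3% higher and 18.5% lower). In these comparisons 0 members were lower. The xpf-3 chloroplast count was 16 and 13 without low-dose replicates 1 and 2, and 14 and 18 without high-dose replicates 2 and 3. The uvr8-6 chloroplast count was 31 without low-dose replicate 1, 31 without low-dose replicate 2, 20 without high-dose replicate 2 and 7 without all uvr8-6 libraries numbered 2.

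Few differences between genotypes in the low-dose response passed in either genome. For xpf-3 against WT, 1 chloroplast member passed and 0 mitochondrial members, against 29.6% of all genes (11.8% larger or more positive in xpf-3 and 17.8% the other way). It was TRNS.1 (ATCG00090), a serine tRNA, with 19 counts after the low dose and 9 in the dark in xpf-3, and 1 and 8 in WT (3.60 ± 1.12, adjusted p = 0.0196). With so few counts the call was lost without WT dark replicate 1 or WT UV-B 3000 replicate 2, and 2 members passed without WT UV-B 3000 replicate 1. A fit of the compared groups alone called 0 of the 18 chloroplast members it tested. Of mitochondrial members 0 had an unadjusted p under 0.05, and DESeq2 called 0. For uvr8-6 against WT, 0 members passed in either genome, against 0.788% of all genes (0.258% more positive and 0.530% more negative in uvr8-6). There, 6 chloroplast and 2 mitochondrial members had an unadjusted p under 0.05, and DESeq2 called 0.

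In the dark, xpf-3 and WT were compared for what the mutation changed without UV-B. No member passed in either genome, against 0.167% of all genes (0.106% higher and 0.0606% lower in xpf-3). By unadjusted p under 0.05 there were 0 chloroplast and 4 mitochondrial members, and DESeq2 called 0 and 1. Mitochondrial rRNA summed to 779, 323 and 584 CPM in xpf-3 dark and 181, 184 and 151 CPM in WT dark, groups that did not overlap. RRN18 was at 248, 105 and 193 CPM and 54.2, 62.9 and 52.8 CPM in the same libraries. Cytosolic rRNA was higher in the same xpf-3 libraries by a ratio of means of 2.59.

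In the dark, uvr8-6 stood above WT in 42 of 56 chloroplast and 8 of 18 mitochondrial members and below it in 0, against 14.2% of all genes higher and 17.2% lower (31.4% in all). The medians were 2.48 and 2.30. By role, 5 of 6 tested NDH members passed (median 3.27), 12 of 15 ribosomal protein (2.98), 7 of 7 in the remaining protein group (2.95), 4 of 4 polymerase (2.56), 3 of 3 cytochrome b6f (2.35), 2 of 4 photosystem I (1.94), 4 of 6 ATP synthase (1.89) and 4 of 8 photosystem II members (1.84). YCF1.2 was at 11.3, 13.6 and 5.44 CPM in uvr8-6 dark and 0.418, 0.236 and 0.751 CPM in WT dark (4.19 ± 0.51, adjusted p = 1.6e-05), and RBCL at 13.0, 9.56 and 3.06 CPM and 1.09, 1.65 and 0.918 CPM (2.69 ± 0.52). In the mitochondrion RPS3 (ATMG00090) was higher (3.83 ± 0.64), as were RRN18 (2.96 ± 0.50) and RRN26 (2.98 ± 0.87), whereas COX1 (1.82 ± 0.72, adjusted p = 0.0588) and COX2 (1.71 ± 0.77, adjusted p = 0.0921) did not pass. Every uvr8-6 library lay above every WT one for YCF1.2 and RBCL. Cytosolic rRNA moved alike, with a ratio of means of 7.70, and the sequencing run cannot be told apart from the genotype. The mitochondrial count was 5 without uvr8-6 dark replicate 2, and 5 without all uvr8-6 libraries numbered 2. With the replicate number as a block within each genotype, the counts were 23 chloroplast and 4 mitochondrial members. A fit of the compared groups alone called 24 of the 27 chloroplast and 4 of the 9 mitochondrial members it tested.

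Nuclear genes that serve organelle gene expression were also counted, in lists made for this purpose. Of the 9 organelle RNA polymerases and sigma factors, 5 were higher after the high dose in WT, 7 in xpf-3 and 7 in uvr8-6, and 0 were lower. The shares of all tested genes that were higher were 33.0%, 37.8% and 32.2% in the same order. Among the 5 in WT, the imported polymerases RPOTm (AT1G68990, mitochondrial) and RPOTmp (AT5G15700, targeted to both organelles) changed most. In xpf-3 the largest log2 fold change of the list was that of RPOTp (AT2G24120), 2.68 ± 0.34, against 1.07 ± 0.31 in WT. RPOTmp averaged 9.74 ± 1.80 CPM after the high dose and 1.70 ± 0.341 CPM in the dark in xpf-3 (2.37 ± 0.23), 9.61 ± 1.63 and 4.07 ± 0.822 CPM in uvr8-6 (1.25 ± 0.19), and 19.1 ± 1.15 and 2.66 ± 1.03 CPM in WT (2.75 ± 0.21; SD, n = 3 each). RPOTm had log2 fold changes of 2.00 ± 0.17, 1.17 ± 0.15 and 1.87 ± 0.15 in the same order of genotypes. At the low dose the list gave 8 of 9 in xpf-3, 1 of 9 in uvr8-6 and 2 of 9 in WT, all higher. Of all tested genes, 33.4%, 2.63% and 12.9% were higher in the same order. The 2 in WT were the same pair of genes, RPOTmp (1.92) and RPOTm (1.18). Most organelle transcripts did not pass at that dose.

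Of 11 proteins associated with the plastid-encoded polymerase, 11 were higher after the high dose in xpf-3, 11 in uvr8-6 and 2 in WT. PTAC14 (AT4G20130) had 2.54 ± 0.31 in xpf-3, 1.04 ± 0.28 in uvr8-6 and 0.50 ± 0.29 in WT, where it did not pass. Of 7 genes for organelle RNA decay and processing, 7, 7 and 4 were higher in the same order. Of 12 genes for the upkeep of organelle DNA, 11 were higher in each genotype, with 1 lower in WT. TWINKLE (AT1G30680), the organelle DNA helicase and primase, averaged 40.1 ± 4.22 CPM after the high dose and 3.94 ± 0.632 CPM in the dark in xpf-3, 49.8 ± 3.56 and 18.4 ± 4.04 CPM in uvr8-6, and 43.2 ± 6.02 and 8.3 ± 6.14 CPM in WT. Background shares of genes called are those given above for each comparison.

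Lists of genes used as tissue markers were followed too, and a change in their transcripts does not by itself show a change in tissue make-up. The 9 green cotyledon and mesophyll markers summed to 7178 to 11188 CPM after the high dose and 916 to 1760 CPM in the dark in xpf-3, with 9 of 9 higher. They summed to 6317 to 9912 CPM and 2618 to 4307 CPM in uvr8-6, with 9 of 9 higher, and to 3735 to 4245 CPM and 1462 to 2570 CPM in WT, with 6 of 9 higher. No marker of this list was at 0 in any group. Of all tested genes, 37.8% were higher after the high dose in xpf-3, 32.2% in uvr8-6 and 33.0% in WT. In the same order, 35.5%, 25.4% and 31.5% were lower. The 6 root markers were lower after the high dose in 5 members in each genotype, summing to 17.6 to 34.4 CPM in WT after the high dose and 359.5 to 474.4 CPM in WT dark. Of the 4 tested shoot apex markers of 5, 2 were higher and 1 lower in WT. The 7 tested seed storage markers of 8 gave 0 calls at either dose in any genotype and summed to 2.65 to 9.09 CPM in WT after the high dose and 1.88 to 10.4 CPM in WT dark. The part of tissue make-up in the organelle result was not tested.

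Some organelle genes could not be measured as such. The 12 protein rows of the chloroplast's inverted repeat held at most 1 count each, and COB, NAD4 and NAD6 of the mitochondrion were at 0, ATP1 had 1 count, COX3 3 and ATP9 4. Nuclear loci inside the insertion of mitochondrial DNA on chromosome 2 held counts for some of the same proteins. These were AT2G07698 (ATP synthase alpha subunit, 356 counts), AT2G07727 (cytochrome b, 68) and AT2G07687 (cytochrome c oxidase subunit III, 47). Of the 90 loci taken as that region, 9 had at least 10 counts. The split of reads between the mitochondrial genes and their nuclear copies is therefore uncertain.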

How the data were processed

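Gene counts were measured by RNA sequencing in 27 libraries. The authors deposited 1 table of raw read counts per locus and 1 of normalised signal. Per the submitters' processing notes the tools were FastQC, Trimmomatic, HISAT2 and DESeq2. Not given in the sources used here were their versions, the genome build and the counting settings. In each library the deposited signal and the count differ by a constant factor (to within 5.24e-10), and those factors served only as an alternative scaling. All 27 columns of counts were used, and 0 columns were left unmatched.

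Levels are CPM, counts scaled to a raw library total of 1000000. Fold changes, SEs and p-values come from edgeR 4.0.16 (R 4.3.3, limma 3.58.1): TMM scaling, the default low-count filter, 1 robust quasi-likelihood fit of 9 groups, two-sided tests and Benjamini-Hochberg adjustment over 19794 genes, with a threshold of 0.05. The fit was tested on simulated data. SE is the log2 fold change divided by the square root of F. Of 124 members, 56 chloroplast and 18 mitochondrial ones were tested. A group at 0 counts was set to a floor of 3. Alternatives were DESeq2 1.42.0, other scalings, no filter, a replicate block, the compared groups alone and leaving out each library. The block within each genotype, the authors' factors and leaving out the uvr8-6 libraries numbered 2 were chosen after seeing the data.

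The members, gene lists and marker lists were chosen with earlier results of these data known. Members named are the 10 with the highest mean share in each genome and, per dose comparison, up to 5 with the largest called change without overlap; others were named after their values were seen. Same-numbered libraries had correlations of 0.384, 0.133 and 0.227 in WT UV-B 3000 against dark, and differently numbered ones reached 0.285. In the uvr8-6 comparisons (low dose and high dose against dark, high against low) the lowest same-numbered values were 0.177, 0.156 and 0.215. Differently numbered libraries reached 0.196, 0.173 and 0.0768 there. These comparisons were named as paired by a minimum correlation of 0.1, and the labels state no pairing. Among them, same-numbered libraries stood clearly above the others only in uvr8-6 UV-B 30000 against UV-B 3000.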

Additional observations from a re-analysis of the deposited data

Results flagged for a closer look

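Effects of UV-B that differed between genotypes, by a test of the difference itself, are collected here. For xpf-3 against WT, 1 of 56 tested chloroplast members differed at the low dose, against 29.6% of all tested genes. At the high dose 1 differed, against 9.34%. It was RPOB (ATCG00190), whose log2 response was larger in xpf-3 by 1.2097. That call was lost in most fits that left out 1 library. For uvr8-6 against WT at the high dose, 11 of 56 chloroplast and 7 of 18 mitochondrial members differed, against 8.21% of all tested genes. Among those named by rule, the chloroplast differences were -2.549 for PSBC (ATCG00280), -3.306 for PSAB (ATCG00340), -2.9716 for PSAA (ATCG00350), -2.9903 for RBCL (ATCG00490) and -3.185 for PETD (ATCG00730). The mitochondrial ones were -2.501 for ORF107A (ATMG00030), -2.4909 for NAD9 (ATMG00070), -3.265 for RPL16 (ATMG00080), -4.1669 for RPS3 (ATMG00090), -2.359 for ORF25 (ATMG00640), -4.742 for ORF106F (ATMG01130) and -2.8771 for RRN18 (ATMG01390). All are uvr8-6 minus WT on the log2 scale. As given above, the PETD call was lost under many alternatives, and the ORF106F value rests on 1 count in WT dark. The uvr8-6 libraries came from a later sequencing run, which cannot be told apart from the genotype.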

How the results depend on the processing

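Of 133 called values of named genes, 95 kept their call under every alternative and 1 reversed: RRN26 in xpf-3 at the low dose was 2.22, but -0.64 without xpf-3 UV-B 3000 replicate 1, and ranged from there to 2.74 over single libraries left out. Counts are of members called, chloroplast then mitochondrial where both are given; the cause of a changed count was not tested unless the alternative itself used fewer libraries. With the compared groups alone, the counts were 26 chloroplast for xpf-3 at the high dose, 18 and 8 for uvr8-6 at the high dose, 24 and 4 for uvr8-6 dark against WT dark, 4 and 2 for the uvr8-6 minus WT high-dose response, 0 chloroplast for the xpf-3 minus WT low-dose response, 4 and 1 for xpf-3 at the low dose and 0 mitochondrial for WT at the low dose. Without the low-count filter, WT at the low dose had 1 chloroplast call and xpf-3 had 9. DESeq2 called 2 and 2 in WT and 5 chloroplast members in xpf-3 at the low dose, and 1 mitochondrial member each for xpf-3 dark against WT dark and for the xpf-3 minus WT high-dose response. Leaving out the uvr8-6 libraries numbered 2 gave 10 chloroplast calls at the high dose, 7 against the low dose, 7 for the uvr8-6 minus WT high-dose response, and 5 mitochondrial calls for uvr8-6 dark against WT dark.

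With the replicate block, mitochondrial calls were 2 for WT and 1 for xpf-3 at the low dose, and chloroplast calls were 4 for xpf-3 at the low dose. With the block within each genotype they were 2 mitochondrial for WT at the low dose, 23 and 4 for uvr8-6 dark against WT dark, and 1 mitochondrial for the xpf-3 minus WT high-dose response. Outside the comparisons named as paired, same-numbered libraries share only a number, with a lowest correlation of -0.305 for xpf-3 at the low dose. The block changed no other count of members by more than 1.5 times.

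Leaving out 1 library at a time gave chloroplast counts of 0 to 1 (WT) and 0 to 9 (xpf-3) at the low dose, 49 to 51 (WT), 41 to 47 (xpf-3) and 12 to 36 (uvr8-6) at the high dose, and 33 to 45 for uvr8-6 dark against WT dark. Against the low dose, the high dose gave 41 to 48 in WT, 13 to 27 in xpf-3 and 20 to 50 in uvr8-6. Genotype differences ranged from 0 to 2 (xpf-3, low dose), 0 to 1 (xpf-3, high dose) and 4 to 21 (uvr8-6, high dose). Mitochondrial counts were 0 to 2 (WT) and 1 to 3 (xpf-3) at the low dose, 18 to 19, 15 to 18 and 10 to 15 at the high dose in WT, xpf-3 and uvr8-6, 18 to 19, 11 to 13 and 11 to 17 for the high against the low dose, 5 to 10 for uvr8-6 dark against WT dark and 4 to 9 for the uvr8-6 minus WT high-dose response.

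Log2 ratios of mean shares moved in the mitochondrion of xpf-3. The high over the low dose was -0.45, but 2.00 without organelle rRNA and tRNA, and -0.94 to 1.87 over single libraries left out. The low dose over dark ranged from -0.33 to 2.48, lowest without xpf-3 UV-B 3000 replicate 1. The xpf-3 dark over WT dark value of 1.65 was 0.92 without organelle rRNA and tRNA. Low counts limit the rest: many members had under 10 counts in a dark group.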
